A study of Homo sapiens with 12 samples.

Results

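The data compared the induced knockdown states of a neuroblastoma line: Kelly cells with a hairpin against RCOR2 (shRCOR2), treated with doxycycline, and Kelly cells with a hairpin against RCOR1 (shRCOR1), treated with doxycycline. The members are the libraries that the labels place in these groups, 4 of the 12 RNA-seq libraries of the series, replicates 1 and 2 of each induced group. Kelly is an established human neuroblastoma cell line with MYCN amplification, and in every line studied the hairpin was expressed from a construct that doxycycline switches on. Set beside them were 2 libraries each of untreated shRCOR2 cells, untreated shRCOR1 cells, and induced and untreated cells with a non-targeting hairpin (shCTRL). The doxycycline dose was 2 µg/mL. The titles and the time label give 72 h for induced and untreated samples alike, while the treatment protocol names shorter times, so the length of induction is uncertain.

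Each hairpin was studied in 1 line, so the effect of losing its target, any effect of the hairpin on other transcripts and a property of that line cannot be told apart. The labels do not say whether replicates were separate cultures, and p-values then measure only the spread between these samples, which may be technical. In RNA from a whole culture, fewer cells of a kind and less RNA per cell cannot be told apart.

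RCOR1 and RCOR2 encode CoREST1 and CoREST2, scaffold proteins that join the histone demethylase LSD1 (gene KDM1A) to the histone deacetylases HDAC1 and HDAC2. CoREST complexes are best known for silencing neuronal genes together with the DNA-binding repressor REST, and zinc finger factors such as INSM1 and GFI1 recruit them in neuroendocrine and blood cells. Neuroblastoma arises from the sympathetic lineage, and its cells hold either an adrenergic identity, kept by factors such as HAND2, GATA3 and ISL1, or a mesenchymal one marked by genes such as VIM, FN1 and PRRX1.

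Expression was deposited as TPM, transcripts scaled to a fixed total and corrected for gene length. Differences are given on the log2(TPM + 1) scale as shRCOR2 minus shRCOR1, so a positive value means higher in induced shRCOR2 cells, and the ± after a difference is its standard error from the fit. That scale understates the difference of genes near 0 TPM. All 12 libraries entered 1 limma fit with a mean for each group and the replicate number as a block, over 16842 genes with at least 1 TPM in at least 2 libraries. Calls were made where the p, adjusted by the Benjamini-Hochberg method, was under 0.05, and every adjusted p given comes from that fit unless another is named.

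The files hold no read counts. The deposited coverage and FPKM values give relative depths of 2.003 and 2.098 in the induced shRCOR2 libraries and 1.26 and 1.24 in the induced shRCOR1 libraries, on a scale where the shallowest of the 12 libraries is 1.0. Genes with at least 1 TPM numbered 15442 and 15720 in induced shRCOR2 cells and 15087 and 16026 in induced shRCOR1 cells. The first principal component, 31.9% of the variance, followed the replicate number in each group. The second, 27.9%, placed the induced shRCOR2 libraries at -43.0 and -47.5 and the induced shRCOR1 libraries at 37.7 and 29.3, with the other 8 libraries between them. Mitochondrial transcripts took 15.3% and 19.0% of TPM in induced shRCOR2 cells and 13.3% and 16.5% in induced shRCOR1 cells.

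The targeted genes came first, as a check of the labels. RCOR1 (chr14:102592649-102730561, GRCh38) had 9.29 and 9.92 TPM in the induced shRCOR2 libraries, against 4.79 and 5.07 TPM in the induced shRCOR1 libraries. The groups did not overlap, and RCOR1 was higher in induced shRCOR2 cells by 0.84 ± 0.11 (adjusted p = 0.000399). Its level in untreated shRCOR1 cells was 8.32 and 9.08 TPM and in induced shCTRL cells 8.83 and 9.15 TPM, so only the induced shRCOR1 libraries stood low.

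RCOR2 (chr11:63911230-63917164) had 17.7 and 20.5 TPM in the induced shRCOR2 libraries, against 25.99 and 26.3 TPM in the induced shRCOR1 libraries. The groups did not overlap, and the difference was -0.44 ± 0.10 (adjusted p = 0.00731). Both induced groups stood below every other library: RCOR2 had 55.4 and 49.9 TPM in untreated shRCOR2 cells, 51.4 and 50.5 TPM in untreated shRCOR1 cells and 49.7 and 42.7 TPM in induced shCTRL cells. On induction RCOR2 fell by 1.42 in shRCOR2 cells (adjusted p = 7.23e-05) and by 0.94 in shRCOR1 cells (adjusted p = 0.000508). The comparison therefore sets cells low in RCOR2 with RCOR1 kept against cells low in RCOR1 with RCOR2 lowered as well. The RCOR2 call was lost when either of 2 libraries was left out: without induced shRCOR1 replicate 2 the difference was -0.40 (adjusted p = 0.0534), and without induced shRCOR2 replicate 1 it was -0.29 (adjusted p = 0.0664).

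RCOR3, the remaining paralog, had 45.99 and 49.5 TPM in induced shRCOR2 cells, against 32.8 and 40.1 TPM in induced shRCOR1 cells. The groups did not overlap, but the difference of 0.39 ± 0.12 (adjusted p = 0.0234) was not called without the replicate block (adjusted p = 0.209) or without induced shRCOR1 replicate 1, induced shRCOR1 replicate 2 or induced shRCOR2 replicate 1 (adjusted p = 0.0963, 0.0927 and 0.168). KDM1A, the catalytic partner of all 3 scaffolds, had 278 and 277 TPM in induced shRCOR2 cells and 282 and 270.3 TPM in induced shRCOR1 cells. Its ranges overlapped and the difference of 0.01 ± 0.06 (adjusted p = 0.914) was within the error, and turned sign under median-of-ratios scaling.

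**Figure D1:**
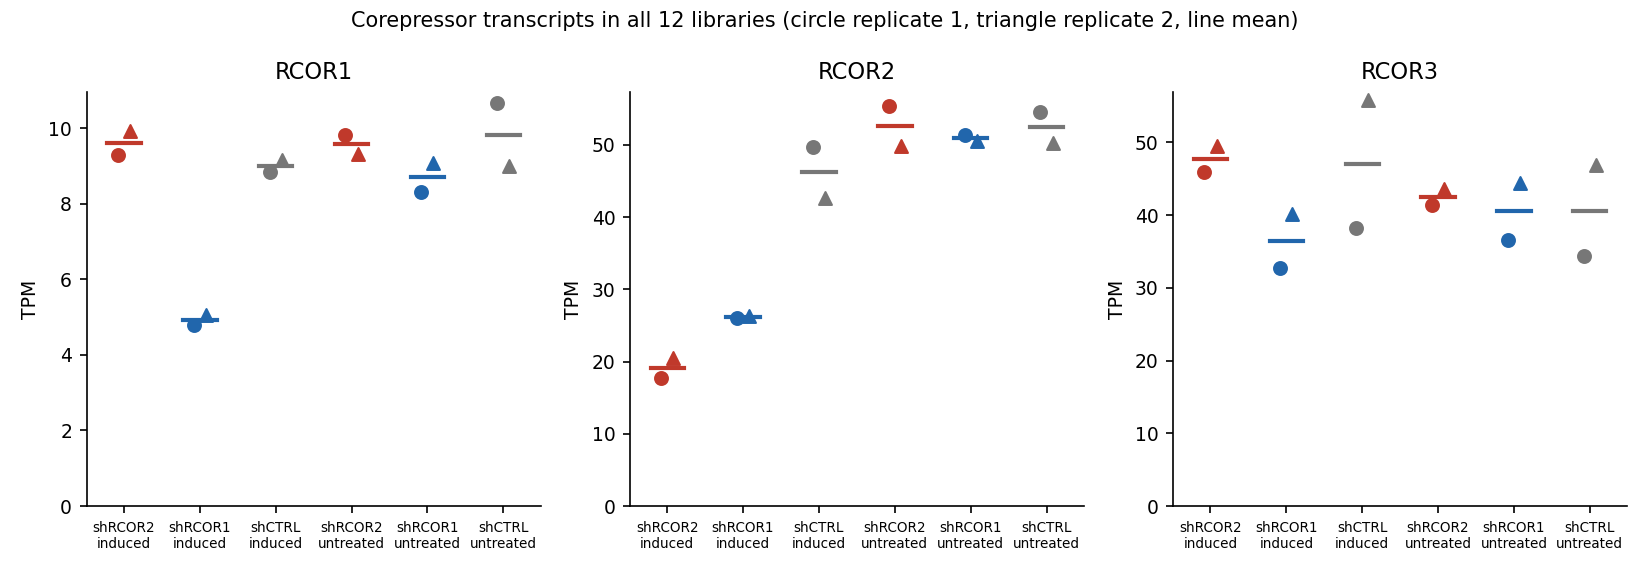
TPM of RCOR1, RCOR2 and RCOR3 in each of the 12 libraries by group, with a circle for replicate 1, a triangle for replicate 2 and a line at the mean. RCOR1 is low only in induced shRCOR1 cells (4.79 and 5.07 TPM), while RCOR2 is low in both induced knockdown groups, at 17.7 and 20.5 TPM in shRCOR2 and 26.0 and 26.3 TPM in shRCOR1.

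Across all genes the induced lines differed widely, and the untreated lines far less. Of the 16842 genes tested, 4614 (27.4%) were called higher and 3489 (20.7%) lower in induced shRCOR2 than in induced shRCOR1 cells, which is 48.1% in either direction. Without the replicate block the count was 4672 (27.7%), all of them among the 8103 called with it. The share of calls that were higher was 56.9%, and it was 49.6% under median-of-ratios scaling and 63.0% on the deposited FPKM. At least a 2-fold difference was found for 727 of the higher calls and 912 of the lower ones.

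In the untreated comparison, which shares no library with the induced one, 0 genes were called (0.0%). An unadjusted p below 0.05 in limma was found for 269 genes, and for 91 without the block. The fit of all 12 libraries took its spread from all 6 groups, so 0 calls do not show that the untreated lines were alike. When the fit held only the libraries of the untreated groups, 26 genes were called. Differences had a standard deviation over genes of 0.63 between the induced lines and 0.17 between the untreated lines. A difference of at least 1 in size was found for 1687 genes between the induced lines and for 53 between the untreated lines. The median over all genes was 0.065 in the induced comparison and 0.03 in the untreated one, and that first median is the one beside which each gene list is read below. List counts are likewise read beside the 27.4% of all genes called higher and the 20.7% called lower. Without the block, 2568 of all genes were called higher and 2104 lower.

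The change on induction differed between the lines for 5125 genes, 2642 with a more positive change in shRCOR2 cells (15.7%) and 2483 with a more negative one (14.7%). The share of more positive changes was 51.6%, but 62.4% on the deposited FPKM, and without the replicate block 1880 genes were called. On induction 21.4% of genes rose and 14.8% fell in shRCOR2 cells, and 15.4% rose and 12.1% fell in shRCOR1 cells. These comparisons use the induced libraries again, so their values are given side by side below and not as separate evidence.

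**Figure D2:**
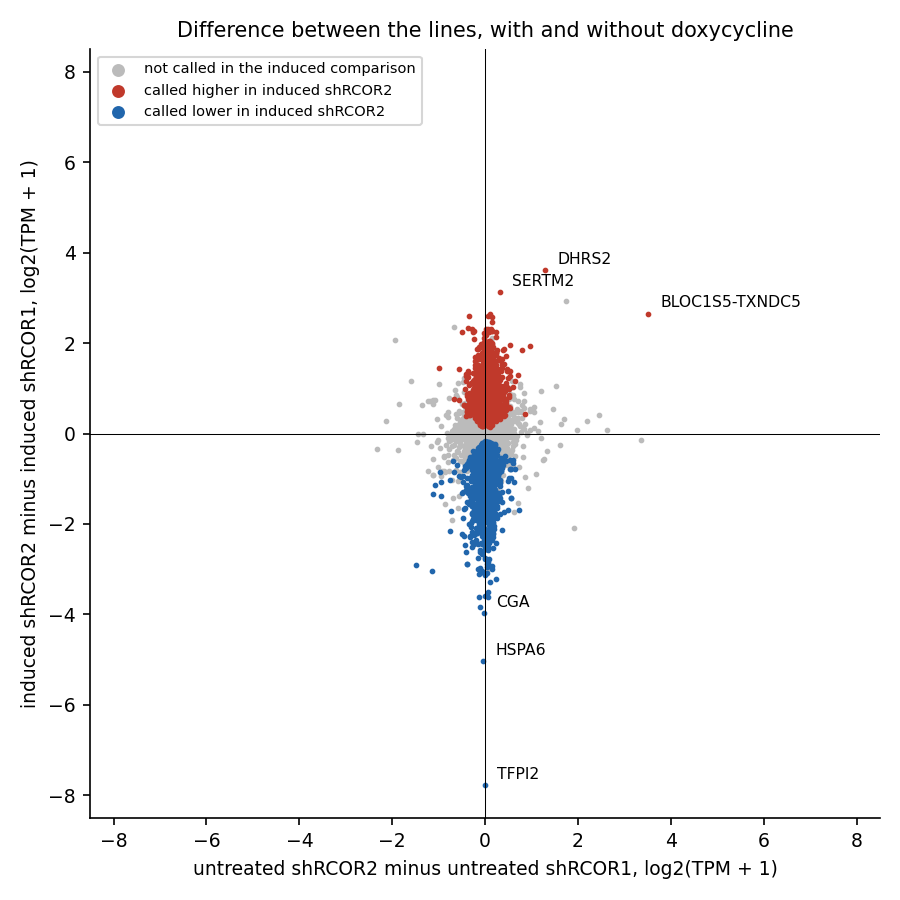
Each point is 1 of 16842 genes, with the untreated shRCOR2 minus untreated shRCOR1 difference across and the induced difference upward, both on the log2(TPM + 1) scale. Red and blue points are genes called higher or lower in induced shRCOR2 cells, and they spread along the vertical axis from -7.78 (TFPI2) to 3.62 (DHRS2) mostly close to 0 on the horizontal axis, with BLOC1S5-TXNDC5 at 3.51 and DHRS2 at 1.29 untreated.

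**Figure D3:**
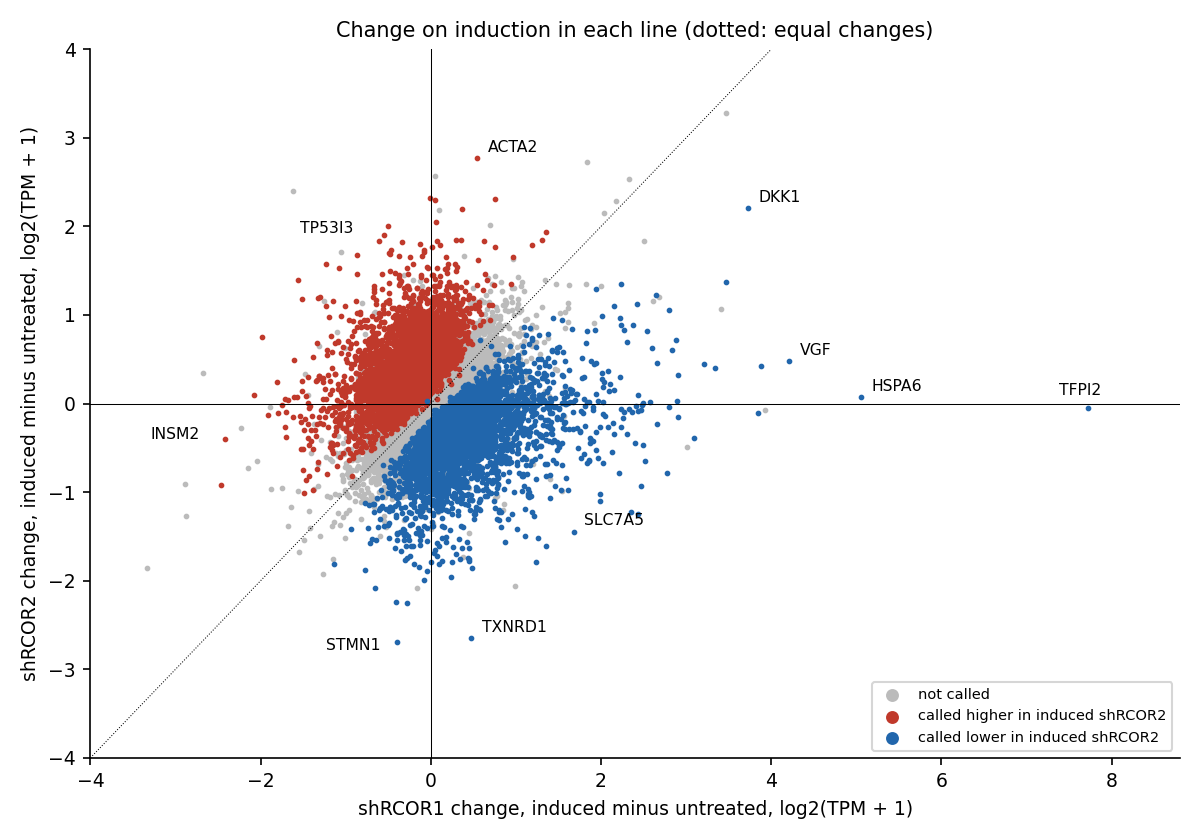
Each point is a gene, with its change on induction in shRCOR1 cells across and in shRCOR2 cells upward, on the log2(TPM + 1) scale, and the dotted line marks equal changes. Colours show the call between the induced lines, whose libraries also enter both axes: TFPI2, HSPA6 and VGF lie far to the right, TXNRD1 and STMN1 far down, and ACTA2 and TP53I3 up.

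The genes with the largest differences were lower in induced shRCOR2 than in induced shRCOR1 cells. The genes named first were chosen among those called with and without the block, with no overlap between the induced groups and with a mean of at least 10 TPM in an induced group, so these traits are no result about them. The 12 largest lower differences among such genes were those of TFPI2, HSPA6, CGA, VGF, PLAT, CREB5, GEM, PDLIM3, RAB31, IL11, SLC7A5 and HSPA1B.

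TFPI2 (chr7:93885396-93890753), a secreted inhibitor of serine proteases, had 0.368 and 0.156 TPM in induced shRCOR2 cells, against 304 and 249 TPM in induced shRCOR1 cells. Only the induced shRCOR1 libraries reached 1 TPM: the other 10 libraries, induced shCTRL included at 0.27 and 0.142 TPM, stayed below 1 TPM. Its difference of -7.78 ± 0.16 (adjusted p = 1.17e-07) came with an untreated difference of -0.01 ± 0.16. PLAT, tissue plasminogen activator, had 1.805 and 2.19 TPM in induced shRCOR2 cells, against 46.4 and 27.8 TPM in induced shRCOR1 cells, a difference of -3.62 ± 0.21 (adjusted p = 1.08e-05). Untreated cells lay between the induced groups, with 6.203 and 6.04 TPM in shRCOR2 and 5.58 and 6.12 TPM in shRCOR1: PLAT fell by 1.25 in shRCOR2 cells and rose by 2.43 in shRCOR1 cells on induction.

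CGA, the common alpha subunit of the glycoprotein hormones, had 0.0557 and 0.0248 TPM in induced shRCOR2 cells, against 6.61 and 34.2 TPM in induced shRCOR1 cells (-3.98 ± 0.47, adjusted p = 0.000223). VGF, a neuropeptide precursor stored in secretory granules, had 23.7 and 20.6 TPM in induced shRCOR2 cells, against 227 and 479 TPM in induced shRCOR1 cells (-3.84 ± 0.46, adjusted p = 0.00024). IL11, a cytokine of the interleukin-6 family, had 4.13 and 4.02 TPM in induced shRCOR2 cells, against 32.04 and 66.5 TPM in induced shRCOR1 cells (-3.22 ± 0.28, adjusted p = 5.92e-05). In all 3 genes the induced shRCOR1 libraries stood above the other 10, and replicate 2 of that group was the higher one.

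The promoters of these 3 genes are shown as examples. Each holds at least 1 of the motifs searched in the windows, and the genes are high together in induced shRCOR1 cells. Neither trait sets them apart among the 12 largest lower genes. The promoters printed are RefSeq windows on GRCh38.p14 from 250 bases before to 50 after the annotated start, on the strand of the gene, CGA at chr6:87095057-87095356 (-), VGF at chr7:101165520-101165819 (-) and IL11 at chr19:55370414-55370713 (-). Capitals mark the cAMP response element TGACGTCA in CGA and VGF, the E-box CACGTG in VGF and the AP-1 element TGAGTCA in IL11.
CGA: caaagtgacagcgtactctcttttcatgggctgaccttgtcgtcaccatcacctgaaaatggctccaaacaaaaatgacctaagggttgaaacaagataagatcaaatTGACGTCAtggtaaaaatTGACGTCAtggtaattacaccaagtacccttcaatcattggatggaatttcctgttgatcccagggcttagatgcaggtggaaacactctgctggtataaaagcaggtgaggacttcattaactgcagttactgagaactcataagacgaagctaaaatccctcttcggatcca
VGF: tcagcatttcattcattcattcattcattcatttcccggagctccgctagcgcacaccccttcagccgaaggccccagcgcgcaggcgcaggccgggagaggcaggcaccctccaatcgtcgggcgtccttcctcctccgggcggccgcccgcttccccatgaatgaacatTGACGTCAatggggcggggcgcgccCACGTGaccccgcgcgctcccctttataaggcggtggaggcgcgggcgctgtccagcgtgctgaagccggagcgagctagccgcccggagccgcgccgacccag
IL11: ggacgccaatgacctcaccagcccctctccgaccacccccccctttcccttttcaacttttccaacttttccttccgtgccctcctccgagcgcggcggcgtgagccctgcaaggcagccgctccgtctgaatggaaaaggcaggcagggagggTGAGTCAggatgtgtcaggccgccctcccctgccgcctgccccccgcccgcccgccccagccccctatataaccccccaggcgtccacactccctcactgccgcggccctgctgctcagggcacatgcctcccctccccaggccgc
The 2 copies in CGA begin 142 and 124 bases before the start, the copy in VGF 79 bases before it, and the AP-1 element in IL11 96 bases before it. Of 10320 such windows, for 80.1% of the 12889 protein-coding genes tested, 3.36% hold TGACGTCA, 2.51% TGAGTCA, 10.2% CACGTG and 8.85% the ETS element CCGGAAGT, each read on both strands. Of the 12 largest lower genes 10 had a window, and 7 of these held at least 1 of the 4 motifs. Besides the genes shown, these were HSPA6, PDLIM3, RAB31 and SLC7A5, while the windows of TFPI2, CREB5 and HSPA1B held none. Of the 12 largest higher genes 7 had a window and 0 held any. These genes are the extremes of the comparison, and the share of all windows with any of the 4 motifs is not given. The 2 counts therefore have no background and are no result about lower or higher genes. No share is given for all genes called lower, since only 79.0% of them had a window. A match describes letters in a window and not a bound site.

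HSPA6, an inducible HSP70 chaperone that is silent in unstressed cells, had 0.0324 and 0.108 TPM in induced shRCOR2 cells, against 10.8 and 103 TPM in induced shRCOR1 cells, where the replicates lay far apart (-5.04 ± 0.69, adjusted p = 0.000507). HSPA1B, another inducible HSP70 gene, had 11.4 and 13.01 TPM in induced shRCOR2 cells, against 101 and 124 TPM in induced shRCOR1 cells (-3.10 ± 0.16, adjusted p = 6.04e-06). HSPA1A and HSPA1B are nearly identical and may share reads. SLC7A5, the large neutral amino acid transporter LAT1, had 45.5 and 46.6 TPM in induced shRCOR2 cells, against 371 and 457 TPM in induced shRCOR1 cells (-3.13 ± 0.11, adjusted p = 2.39e-06). Induced shCTRL cells also held more SLC7A5, 210.0 and 308 TPM, than any untreated knockdown library.

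CREB5, a transcription factor that binds cAMP response elements, had 1.15 and 1.37 TPM in induced shRCOR2 cells, against 25.01 and 28.5 TPM in induced shRCOR1 cells (-3.62 ± 0.31, adjusted p = 5.26e-05). GEM, a small GTPase that restrains voltage-gated calcium channels, had 8.55 and 5.71 TPM in induced shRCOR2 cells, against 94.1 and 95.8 TPM in induced shRCOR1 cells (-3.58 ± 0.21, adjusted p = 1.17e-05). PDLIM3, a protein of the actin Z-disc, had 0.525 and 0.979 TPM in induced shRCOR2 cells against 16.9 and 20.8 TPM in induced shRCOR1 cells (-3.51 ± 0.27), and RAB31, a GTPase of endosomal transport, 2.11 and 2.38 TPM in induced shRCOR2 cells against 25.7 and 36.6 TPM in induced shRCOR1 cells (-3.29 ± 0.13). In each of these 4 genes both induced shRCOR1 libraries stood above all 10 others. GEM and RAB31 fell in shRCOR2 cells on induction, by 1.23 and 0.93, as they rose in shRCOR1 cells, by 2.35 and 2.47.

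**Figure D4:**
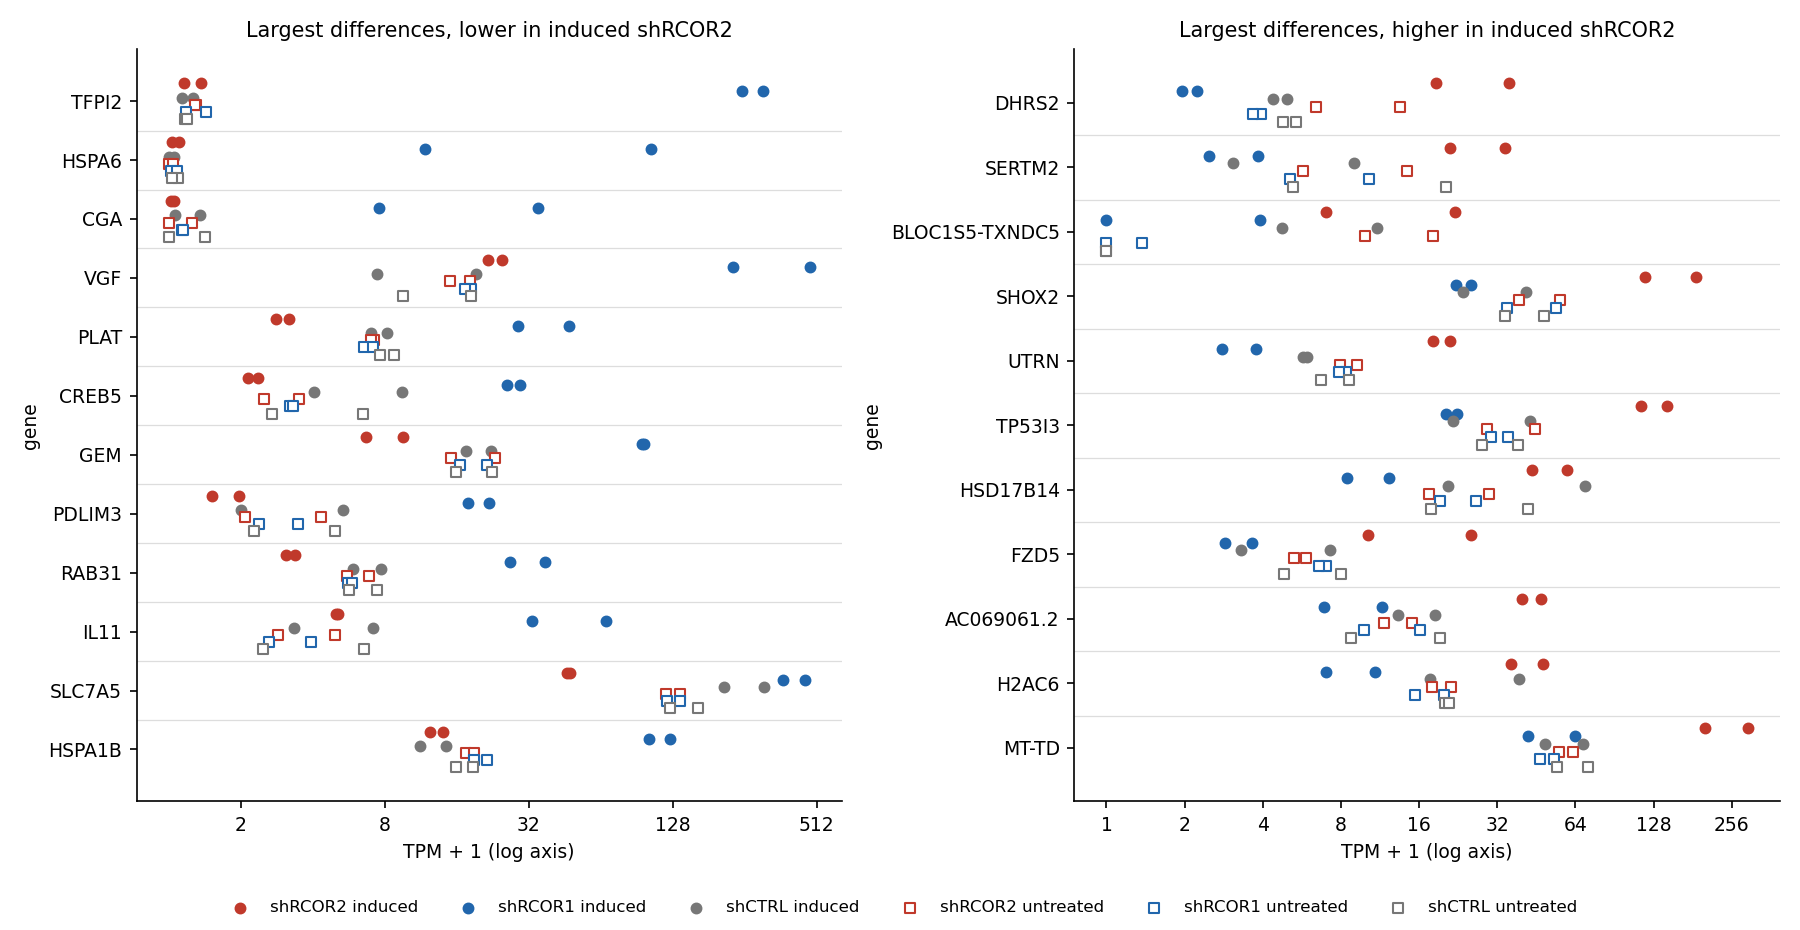
TPM + 1 in each of the 12 libraries (log axis) for the 12 genes with the largest lower differences (left) and 11 of the 12 with the largest higher differences (right), filled circles for induced and open squares for untreated cells, red for shRCOR2, blue for shRCOR1 and grey for shCTRL. On the left the blue circles stand apart to the right, for example TFPI2 at 304 and 249 TPM; on the right the red circles do so for most genes, for example TP53I3 at 143 and 113 TPM.

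Genes higher in induced shRCOR2 cells reached smaller differences. Among the 12 largest were those of DHRS2, SERTM2, BLOC1S5-TXNDC5, SHOX2, UTRN, TP53I3, HSD17B14, FZD5, AC069061.2, H2AC6 and MT-TD. DHRS2, a mitochondrial short-chain dehydrogenase, had 34.4 and 17.6 TPM in induced shRCOR2 cells, against 1.24 and 0.946 TPM in induced shRCOR1 cells (3.62 ± 0.36, adjusted p = 0.000103). The replicates of induced shRCOR2 cells were apart from each other but far above the other group, and the untreated lines already differed in the same direction by 1.29 ± 0.36, which was not called.

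SHOX2, a homeobox transcription factor, had 118 and 185 TPM in induced shRCOR2 cells, against 21.3 and 24.4 TPM in induced shRCOR1 cells (2.64 ± 0.13, adjusted p = 5.15e-06). UTRN, which encodes the dystrophin homologue utrophin, had 17.1 and 20.1 TPM in induced shRCOR2 cells, against 2.76 and 1.78 TPM in induced shRCOR1 cells (2.60 ± 0.15, adjusted p = 1.17e-05). Both genes moved in opposite directions on induction: SHOX2 rose by 1.68 in shRCOR2 cells and fell by 0.86 in shRCOR1 cells, and UTRN rose by 1.19 and fell by 1.33. SERTM2, a membrane protein of little known function, had 19.99 and 33.4 TPM in induced shRCOR2 cells, against 1.48 and 2.82 TPM in induced shRCOR1 cells (3.13 ± 0.29).

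TP53I3, a quinone oxidoreductase gene and p53 target, had 143 and 113 TPM in induced shRCOR2 cells, against 21.5 and 19.3 TPM in induced shRCOR1 cells (2.59 ± 0.18, adjusted p = 2.2e-05). HSD17B14, a steroid dehydrogenase, had 42.4 and 58.5 TPM in induced shRCOR2 cells, against 7.45 and 11.2 TPM in induced shRCOR1 cells (2.32 ± 0.29), and the induced shCTRL libraries lay far apart at 19.6 and 68.8 TPM. FZD5, a Wnt receptor, had 9.19 and 24.3 TPM in induced shRCOR2 cells, against 2.64 and 1.87 TPM in induced shRCOR1 cells (2.31 ± 0.46).

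Among the higher genes named, BLOC1S5-TXNDC5 has an uncertain identity. It is a read-through transcript that shares its exons with TXNDC5, and its value of 20.9 and 6.01 TPM in induced shRCOR2 cells against 0 and 2.89 TPM in induced shRCOR1 cells came with an uncalled untreated difference of 3.51 ± 0.70. Its call was lost without induced shRCOR1 replicate 1 (1.25, adjusted p = 0.0628) and without induced shRCOR2 replicate 1 (1.89, adjusted p = 0.107). MT-TD, the mitochondrial aspartate tRNA, had 202 and 294 TPM in induced shRCOR2 cells, against 40.95 and 62.5 TPM in induced shRCOR1 cells (2.24 ± 0.23), and AC069061.2, which has no assigned function, 38.7 and 45.96 TPM in induced shRCOR2 cells against 5.88 and 10.5 TPM in induced shRCOR1 cells (2.28 ± 0.19). The MT-TD gene is short (chrM:7518-7585), and whether its reads came from the tRNA or from neighbouring transcripts was not tested.

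Partners of the CoREST scaffolds differed in both directions. Of 20 tested members of the list of complex subunits and recruiting factors, 9 were higher and 6 lower in induced shRCOR2 cells. These shares are 45.0% and 30.0%, against 27.4% and 20.7% of all genes, and without the block 5 were higher and 4 lower. The median was 0.13, and 0.06 under median-of-ratios scaling. The list includes the hairpin target RCOR1, so that call is no result about partners. INSM2, a zinc finger repressor of neuroendocrine cells, had 239.9 and 260.0 TPM in induced shRCOR2 cells, against 101 and 43.9 TPM in induced shRCOR1 cells (1.89 ± 0.25, adjusted p = 0.000418). Its change on induction was -0.41 ± 0.25 (adjusted p = 0.237) in shRCOR2 cells and -2.42 ± 0.25 (adjusted p = 0.000416) in shRCOR1 cells. SNAI1, a repressor of epithelial genes that binds LSD1, had 12.1 and 12.1 TPM in induced shRCOR2 cells, against 19.4 and 26.3 TPM in induced shRCOR1 cells (-0.85 ± 0.14, adjusted p = 0.00108).

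REST itself had 1.07 and 1.27 TPM in induced shRCOR2 cells, against 3.17 and 7.06 TPM in induced shRCOR1 cells (-1.42 ± 0.27, adjusted p = 0.00269). The groups did not overlap, but the call was lost without the block (adjusted p = 0.0785), and induced shCTRL cells had 1.79 and 6.17 TPM. INSM1 had 2.48 and 6.12 TPM in induced shRCOR2 cells, against 8.34 and 7.81 TPM in induced shRCOR1 cells; its call (-0.87 ± 0.24, adjusted p = 0.0168) was likewise lost without the block (adjusted p = 0.112), and without induced shRCOR1 replicate 1 or induced shRCOR2 replicate 1 the difference was -0.547 or -0.515, neither of them called.

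Transcription factors of the adrenergic state were more often higher than lower. Among 29 tested, 15 were higher and 5 lower in induced shRCOR2 cells, 51.7% and 17.2% against 27.4% and 20.7% of all genes, and the median was 0.54. GATA3, a factor of the adrenergic core circuit, had 258 and 268 TPM in induced shRCOR2 cells, against 112 and 101 TPM in induced shRCOR1 cells (1.30 ± 0.10, adjusted p = 3.59e-05). ISL1, a LIM homeobox factor of the same circuit, had 85.7 and 72.05 TPM in induced shRCOR2 cells, against 38.2 and 27.6 TPM in induced shRCOR1 cells (1.25 ± 0.14, adjusted p = 0.000175). EYA1, a transcriptional coactivator and phosphatase, had 56.02 and 67.7 TPM in induced shRCOR2 cells, against 20.3 and 14.2 TPM in induced shRCOR1 cells (1.80 ± 0.19, adjusted p = 0.000125). In these 3 genes the induced shRCOR1 libraries were the lowest of the 12, and the change on induction in shRCOR1 cells was called in each, from -0.70 (GATA3) to -1.68 (EYA1). NEUROD1, a proneural factor, had 9.53 and 11.1 TPM in induced shRCOR2 cells, against 3.64 and 4.09 TPM in induced shRCOR1 cells (1.21 ± 0.14).

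MYCN, the amplified oncogene of these cells, had 1269 and 1042 TPM in induced shRCOR2 cells, against 2190 and 2385 TPM in induced shRCOR1 cells (-0.99 ± 0.23, adjusted p = 0.00776). The groups did not overlap. The call was lost without induced shRCOR1 replicate 2 (-0.72, adjusted p = 0.0743), and induced shCTRL cells had 2928 and 1421 TPM. MYCN fell by 1.30 on induction in shRCOR2 cells (adjusted p = 0.00353), and its change in shRCOR1 cells was -0.31 ± 0.23 (adjusted p = 0.364).

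Mesenchymal factors and markers were more often lower than higher in induced shRCOR2 cells. Of 26 tested, 12 were lower and 1 higher, 46.2% and 3.85% against 20.7% and 27.4% of all genes, with a median of -0.59. The counts were 7 and 1 without the block. FOSL2, an AP-1 subunit of the mesenchymal programme, had 5.96 and 5.82 TPM in induced shRCOR2 cells, against 48.8 and 54.7 TPM in induced shRCOR1 cells (-2.94 ± 0.11, adjusted p = 2.41e-06). VIM, the intermediate filament vimentin, had 42.9 and 52.7 TPM in induced shRCOR2 cells, against 180.4 and 339.6 TPM in induced shRCOR1 cells (-2.36 ± 0.20, adjusted p = 5.18e-05). VIM also differed by replicate elsewhere, with 112 and 281 TPM in induced shCTRL cells. LGALS1, galectin-1, had 15.4 and 13.4 TPM in induced shRCOR2 cells, against 37.6 and 45.3 TPM in induced shRCOR1 cells (-1.46 ± 0.26), and TGFBI, an extracellular matrix protein, 0.343 and 0.282 TPM in induced shRCOR2 cells against 2.01 and 6.3 TPM in induced shRCOR1 cells (-1.84 ± 0.29).

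COL1A1, a fibrillar collagen chain, had 7.94 and 11.8 TPM in induced shRCOR2 cells, against 22.7 and 52.6 TPM in induced shRCOR1 cells (-1.73 ± 0.56, adjusted p = 0.0306). That call was lost without the block (adjusted p = 0.355), and without induced shRCOR2 replicate 2 or induced shRCOR1 replicate 1 the difference was -0.89 or -1.28 (adjusted p = 0.244 and 0.199). The summed TPM of all 38 mesenchymal genes was 524 and 529 in induced shRCOR2 cells and 780 and 1033 in induced shRCOR1 cells, but also 667 and 990.0 in induced shCTRL and 852 and 954 in untreated shCTRL cells.

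Most markers of other cell types were near 0, but not all. The 8 fibroblast and endothelial markers summed to 38.3 and 48.7 TPM in induced shRCOR2 cells and 35.5 and 76.4 TPM in induced shRCOR1 cells, nearly all of it COL1A1 and PDGFRB, while PECAM1, COL1A2, DCN and CDH5 stayed below 1 TPM in every library. The sum was 28.5 and 123 TPM in induced shCTRL and 39.3 and 127 TPM in untreated shCTRL cells, with COL1A1 at 81.2 TPM in induced and 87.3 TPM in untreated shCTRL replicate 2. Of the 4 tested, 1 was higher and 2 were lower, and 0 were called without the block. The 6 Schwann cell precursor markers summed to 3.88 and 3.66 TPM in induced shRCOR2 cells and 2.37 and 6.12 TPM in induced shRCOR1 cells, with 1 of 3 tested higher (FOXD3, 0.83 ± 0.18) and SOX10 and S100B below 1 TPM in every library. The 5 epithelial markers summed to 9.59 and 12.5 TPM in induced shRCOR2 cells and 12.8 and 12.4 TPM in induced shRCOR1 cells, nearly all from KRT19 and EPCAM, with KRT5 and CDH1 at 0. Leukocyte markers summed to 0.505 and 0.613 TPM in induced shRCOR2 cells and 0.608 and 0.991 TPM in induced shRCOR1 cells, and 0 of 5 reached the filter. Of the 9 adrenergic markers, all abundant, 3 were higher and 4 lower in induced shRCOR2 cells.

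Of 17 genes of catecholamine synthesis and storage 4 were higher and 6 lower, with a median of -0.335. These shares are 23.5% and 35.3%, against 27.4% and 20.7% of all genes, and without the block 1 was higher and 3 lower. SLC18A1, a higher member, had 23.6 and 61.6 TPM in induced shRCOR2 cells, against 18.2 and 18.3 TPM in induced shRCOR1 cells. Its difference of 1.03 ± 0.27 (adjusted p = 0.0135) was not called without the block (adjusted p = 0.0771). DDC, the decarboxylase that makes dopamine, had 140.4 and 272 TPM in induced shRCOR2 cells, against 399 and 379 TPM in induced shRCOR1 cells (-0.99 ± 0.23, adjusted p = 0.00766), and the call was lost without induced shRCOR1 replicate 1 (-0.82, adjusted p = 0.0692). TH, the rate-limiting hydroxylase, had 122 and 318 TPM in induced shRCOR2 cells, against 373 and 589.7 TPM in induced shRCOR1 cells (-1.25 ± 0.22), with no call without the block (adjusted p = 0.0903). GCH1, which makes the cofactor of TH, had 13.2 and 12.4 TPM in induced shRCOR2 cells, against 26.9 and 36.9 TPM in induced shRCOR1 cells (-1.24 ± 0.17, adjusted p = 0.000447). DDC also fell in both lines on induction, by 1.81 in shRCOR2 and 1.14 in shRCOR1 cells. SCG2, a granin of secretory granules, rose in both lines, by 0.96 in shRCOR2 and 2.22 in shRCOR1 cells, and differed between the induced lines by -1.24 ± 0.16.

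Neuropeptide and hormone precursors had the lowest median among lists with at least 10 tested members. Of 13 tested, 9 were lower and 1 higher in induced shRCOR2 cells (6 and 1 without the block), and the median was -1.67. PENK, the enkephalin precursor, had 2.21 and 2.13 TPM in induced shRCOR2 cells, against 13.2 and 15.98 TPM in induced shRCOR1 cells (-2.29 ± 0.15, adjusted p = 1.58e-05). GAL, the galanin precursor, had 132 and 95.9 TPM in induced shRCOR2 cells, against 539.7 and 418 TPM in induced shRCOR1 cells (-2.07 ± 0.14, adjusted p = 2.3e-05). The induced groups did not overlap for either gene. CARTPT, the precursor of CART peptide, had 18.1 and 108 TPM in induced shRCOR2 cells, against 599.6 and 236 TPM in induced shRCOR1 cells (-3.05 ± 0.76, adjusted p = 0.00989). The untreated lines already differed for CARTPT by -1.14 ± 0.76 without a call, and leaving out replicate 1 of either induced group ended the call, with differences of -1.70 (shRCOR1) and -2.07 (shRCOR2).

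Genes of neuronal structure and synapse split evenly, with 14 higher and 14 lower of 42 (5 and 11 without the block) and a median of 0.07 that turned sign under median-of-ratios scaling. STMN1, the microtubule-destabilising protein stathmin, had 127 and 108 TPM in induced shRCOR2 cells, against 700.1 and 435 TPM in induced shRCOR1 cells (-2.23 ± 0.12, adjusted p = 8.34e-06). UCHL1, an abundant neuronal ubiquitin hydrolase, had 280.3 and 280.2 TPM in induced shRCOR2 cells, against 1111 and 788 TPM in induced shRCOR1 cells (-1.74 ± 0.16, adjusted p = 7.83e-05). For both, induced shRCOR2 cells were the low group of all 6, and STMN1 fell in them by 2.69 on induction. TUBB2B, a neuronal tubulin, had 186 and 154 TPM in induced shRCOR2 cells, against 532 and 429.6 TPM in induced shRCOR1 cells (-1.50 ± 0.07). CNTN1, a neural adhesion protein, differed the other way, with 150.1 and 218 TPM in induced shRCOR2 cells, against 52 and 60.8 TPM in induced shRCOR1 cells (1.67 ± 0.17), and so did DCX, the migration protein doublecortin, at 14.9 and 23.2 TPM in induced shRCOR2 cells against 4.25 and 7.95 TPM in induced shRCOR1 cells (1.52 ± 0.19), a call lost without the block (adjusted p = 0.0641).

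Transcripts that feed back on ERK signalling were high in induced shRCOR1 cells. Of 20 tested, 14 were lower and 1 higher in induced shRCOR2 cells (12 and 1 without the block), with a median of -1.06. On induction 14 of the 20 rose in shRCOR1 cells, against 6 that rose and 3 that fell in shRCOR2 cells. DUSP4, a nuclear phosphatase of ERK, had 7.63 and 7.51 TPM in induced shRCOR2 cells, against 58.02 and 55.8 TPM in induced shRCOR1 cells (-2.76 ± 0.12, adjusted p = 3.31e-06). DUSP5, another ERK phosphatase, had 3.15 and 2.64 TPM in induced shRCOR2 cells, against 22.1 and 39.01 TPM in induced shRCOR1 cells (-2.97 ± 0.24, adjusted p = 4e-05). The induced shRCOR1 libraries were the highest of the 12 for both. ETV1, an ETS transcription factor, was the exception, with 60.6 and 68.2 TPM in induced shRCOR2 cells, against 15.1 and 15.8 TPM in induced shRCOR1 cells (1.99 ± 0.34, adjusted p = 0.00162).

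Immediate early and AP-1 genes followed with 9 of 18 lower and 0 higher (6 and 0 without the block) and a median of -0.96. NR4A1, an orphan nuclear receptor induced within minutes of a stimulus, had 23.6 and 26.9 TPM in induced shRCOR2 cells, against 61.5 and 128 TPM in induced shRCOR1 cells (-1.77 ± 0.25, adjusted p = 0.000531). KLF6, a zinc finger factor, had 19.6 and 18.8 TPM in induced shRCOR2 cells, against 51.6 and 68.1 TPM in induced shRCOR1 cells (-1.58 ± 0.17, adjusted p = 0.000147). JUNB had 31.9 and 24.1 TPM in induced shRCOR2 cells, against 63.6 and 61.4 TPM in induced shRCOR1 cells, but untreated shRCOR1 cells had 65.5 and 26.4 TPM, and the call (-1.14 ± 0.33) was lost without the block (adjusted p = 0.214), without induced shRCOR1 replicate 2 (-0.64) and without induced shRCOR2 replicate 1 (-0.84). The summed TPM of the 24 genes was 489 and 428 in induced shRCOR2 and 908 and 967 in induced shRCOR1 cells, beside 1000 and 302 in untreated shRCOR1 and 1122 and 330 in untreated shCTRL cells.

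Of 19 receptors and neurotrophin signalling genes 5 were higher and 7 lower (2 and 3 without the block), with a median of -0.16. These shares are 26.3% and 36.8%, against 27.4% and 20.7% of all genes. RET, the receptor of the GDNF family, had 49.8 and 24.1 TPM in induced shRCOR2 cells, against 172 and 213 TPM in induced shRCOR1 cells (-2.43 ± 0.46, adjusted p = 0.00271). KDR, a receptor of vascular endothelial growth factor, had 3.05 and 5.56 TPM in induced shRCOR2 cells, against 0.177 and 0.188 TPM in induced shRCOR1 cells (2.12 ± 0.20, adjusted p = 7.04e-05). RET rose by 2.13 in shRCOR1 cells on induction and KDR by 1.82 in shRCOR2 cells. IGF2R, which clears IGF2, had 13 and 17.6 TPM in induced shRCOR2 cells, against 28.3 and 35.4 TPM in induced shRCOR1 cells (-1.01 ± 0.10). PDGFRB, the platelet-derived growth factor receptor beta, had 28.9 and 34.9 TPM in induced shRCOR2 cells, against 10.6 and 19.3 TPM in induced shRCOR1 cells (1.10 ± 0.18), and was not called without the block (adjusted p = 0.0543).

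Of 28 Wnt, Notch and Hedgehog genes, 13 were lower and 2 higher (10 and 1 without the block), with a median of -0.53. DKK1, a secreted Wnt antagonist, had 159 and 134 TPM in induced shRCOR2 cells, against 406 and 443 TPM in induced shRCOR1 cells (-1.53 ± 0.20, adjusted p = 0.000349). DKK1 rose in both lines, by 2.21 in shRCOR2 and 3.73 in shRCOR1 cells, and stayed at 33.4 and 19.2 TPM in induced shCTRL cells. DLL3, an inhibitory Notch ligand, had 20.4 and 21.1 TPM in induced shRCOR2 cells, against 46.8 and 47.2 TPM in induced shRCOR1 cells (-1.14 ± 0.11, adjusted p = 7.21e-05), after a fall of 1.17 in shRCOR2 cells and no called change in shRCOR1 cells (-0.07 ± 0.11). HES1, a repressor downstream of Notch, had 1.57 and 1.49 TPM in induced shRCOR2 cells, against 3.62 and 6.197 TPM in induced shRCOR1 cells (-1.19 ± 0.18).

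The plasminogen system and protease inhibitors were lower in induced shRCOR2 cells in 9 of 10 tested members and higher in 0 (8 and 0 without the block). Their median was -1.55. TIMP2, an inhibitor of matrix metalloproteinases, had 41.1 and 42.9 TPM in induced shRCOR2 cells, against 141 and 141 TPM in induced shRCOR1 cells (-1.72 ± 0.10, adjusted p = 8.83e-06). TIMP3 had 0.821 and 1.23 TPM in induced shRCOR2 cells, against 5.32 and 9.89 TPM in induced shRCOR1 cells (-2.04 ± 0.18). PLAU, urokinase, had 0.0777 and 0.1196 TPM in induced shRCOR2 cells, against 1.37 and 3.64 TPM in induced shRCOR1 cells (-1.60 ± 0.24). On induction 8 of the 10 rose in shRCOR1 cells, and 0 rose and 2 fell in shRCOR2 cells.

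Of 14 contractile genes 2 were higher and 6 lower (2 and 3 without the block), with a median of -0.36. These shares are 14.3% and 42.9%, against 27.4% and 20.7% of all genes. CNN1, smooth muscle calponin, had 1.69 and 2.45 TPM in induced shRCOR2 cells, against 23.2 and 24.6 TPM in induced shRCOR1 cells (-3.03 ± 0.17, adjusted p = 8.83e-06). ACTN1, an actin cross-linking protein, had 37.3 and 39.7 TPM in induced shRCOR2 cells, against 179 and 231 TPM in induced shRCOR1 cells (-2.37 ± 0.10, adjusted p = 2.75e-06). ACTA2, smooth muscle actin, went the other way, with 18.8 and 17.1 TPM in induced shRCOR2 cells, against 2 and 4.57 TPM in induced shRCOR1 cells (2.21 ± 0.25, adjusted p = 0.000181), and CALD1, caldesmon, had 120.3 and 156 TPM in induced shRCOR2 cells against 47.8 and 63.5 TPM in induced shRCOR1 cells (1.30 ± 0.09). ACTA2 rose by 2.77 in shRCOR2 cells, and CALD1 fell by 1.09 in shRCOR1 cells on induction.

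Chaperones of the cytosol were lower in induced shRCOR2 cells nearly throughout. Of 18 heat shock protein genes, 16 were lower and 0 higher (14 and 0 without the block), with a median of -1.21. HSPB1, the small heat shock protein HSP27, had 91.4 and 83.7 TPM in induced shRCOR2 cells, against 466 and 353 TPM in induced shRCOR1 cells (-2.20 ± 0.09, adjusted p = 2.75e-06). HSPA1A had 5.65 and 6.56 TPM in induced shRCOR2 cells, against 49.9 and 61.7 TPM in induced shRCOR1 cells (-2.99 ± 0.16, adjusted p = 8.11e-06). HSPB8, a partner of selective autophagy, had 0.902 and 1.23 TPM in induced shRCOR2 cells, against 11.9 and 12.4 TPM in induced shRCOR1 cells (-2.67 ± 0.34). Summed over the 19 genes of the list, the level was 5506 and 5162 TPM in induced shRCOR2 cells, 12120 and 10340 TPM in induced shRCOR1 cells and 6654 and 5168 TPM in induced shCTRL cells. On induction 14 members rose in shRCOR1 cells, and 10 fell in shRCOR2 cells.

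Chaperones of the endoplasmic reticulum were lower too, with 15 of 19 lower and 0 higher (11 and 0 without the block) and a median of -0.64. HSPA5, the chaperone BiP, had 162 and 192 TPM in induced shRCOR2 cells, against 487 and 513 TPM in induced shRCOR1 cells (-1.50 ± 0.16, adjusted p = 0.000147). PDIA6, a disulfide isomerase, had 236 and 246 TPM in induced shRCOR2 cells, against 528 and 472 TPM in induced shRCOR1 cells (-1.05 ± 0.07, adjusted p = 2.07e-05). Both fell on induction in shRCOR2 cells, by 0.78 and 0.73, and rose in shRCOR1 cells, by 0.61 and 0.28. SEC61B, a subunit of the translocation channel, had 25.5 and 24.1 TPM in induced shRCOR2 cells, against 81.1 and 56.5 TPM in induced shRCOR1 cells (-1.41 ± 0.11), with a fall of 1.46 in shRCOR2 cells. EDEM1, which acts in degradation of misfolded glycoproteins, had 8.003 and 11.5 TPM in induced shRCOR2 cells and 21.4 and 38.8 TPM in induced shRCOR1 cells; the call (-1.49 ± 0.34) was lost without the block (adjusted p = 0.125) and without induced shRCOR2 replicate 2 (-1.21, adjusted p = 0.0552).

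Genes of the integrated stress response, which halts most translation and switches on ATF4 targets, were lower in induced shRCOR2 cells where they were called. Of 35 tested genes 16 were lower and 0 higher in induced shRCOR2 than in induced shRCOR1 cells (9 and 0 without the block). The median was -0.55. Induction moved the list median by 0.67 in shRCOR2 cells, by 1.125 in shRCOR1 cells and by 0.82 in shCTRL cells; 18 members rose and 5 fell in shRCOR2 cells, 30 rose in shRCOR1 cells, and 0 were called in shCTRL cells, where 10 genes of all tested were called. PSAT1, an enzyme of serine synthesis, had 64.6 and 68.1 TPM in induced shRCOR2 cells, against 189 and 213 TPM in induced shRCOR1 cells (-1.58 ± 0.12, adjusted p = 3e-05), and 167 and 213 TPM in induced shCTRL cells. CEBPB, a transcription factor of this response, had 30.9 and 31.6 TPM in induced shRCOR2 cells, against 80.3 and 86.97 TPM in induced shRCOR1 cells (-1.39 ± 0.14), and its partner CEBPG 30.1 and 30.4 TPM in induced shRCOR2 cells against 73.8 and 88.4 TPM in induced shRCOR1 cells (-1.39 ± 0.15). TRIB3, a pseudokinase target of ATF4, had 39.99 and 45.2 TPM in induced shRCOR2 cells and 89.6 and 146 TPM in induced shRCOR1 cells (-1.41 ± 0.34), a call lost without the block (adjusted p = 0.111), without induced shRCOR1 replicate 1 (adjusted p = 0.0593) and without induced shRCOR2 replicate 2 (adjusted p = 0.0803).

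Antioxidant genes of the NRF2 and thioredoxin systems were lower in 14 of 24 and higher in 4 (11 and 2 without the block). Their median was -0.49. TXNRD1, cytosolic thioredoxin reductase, had 32.6 and 30.9 TPM in induced shRCOR2 cells, against 263 and 292 TPM in induced shRCOR1 cells (-3.09 ± 0.10, adjusted p = 2.39e-06). SRXN1, sulfiredoxin, had 9.29 and 9.05 TPM in induced shRCOR2 cells, against 38.9 and 34.5 TPM in induced shRCOR1 cells (-1.89 ± 0.09, adjusted p = 5.1e-06). Here it was the induced shRCOR2 libraries that stood below the other 10: TXNRD1 fell by 2.65 and SRXN1 by 1.77 on induction. HMOX1, haem oxygenase, had 14.3 and 22.1 TPM in induced shRCOR2 cells, against 30.8 and 316 TPM in induced shRCOR1 cells, where replicate 2 stood far above replicate 1 (-2.42 ± 0.64, adjusted p = 0.013). It was not called without the block (adjusted p = 0.0814) or without induced shRCOR2 replicate 2 (-2.11, adjusted p = 0.0809). PRDX1, an abundant peroxiredoxin, had 570.2 and 437 TPM in induced shRCOR2 cells, against 1201 and 904 TPM in induced shRCOR1 cells (-1.06 ± 0.11).

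Glycolytic and hypoxia genes were lower in 25 of 35 and higher in 3 (21 and 2 without the block), with a median of -0.81. HIF1A, the oxygen-regulated transcription factor, had 75.99 and 84.3 TPM in induced shRCOR2 cells, against 418 and 445 TPM in induced shRCOR1 cells (-2.41 ± 0.11, adjusted p = 4.21e-06). PFKFB3, which makes the activator of phosphofructokinase, had 1.77 and 1.62 TPM in induced shRCOR2 cells, against 14.4 and 27.7 TPM in induced shRCOR1 cells (-2.96 ± 0.30, adjusted p = 0.000101). Untreated cells held middle levels of HIF1A, 207 and 183 TPM in shRCOR2 and 185 and 187 TPM in shRCOR1, and the change on induction was -1.27 ± 0.11 in shRCOR2 and 1.21 ± 0.11 in shRCOR1 cells. PDK1, which restrains pyruvate dehydrogenase, had 3.93 and 4.68 TPM in induced shRCOR2 cells, against 18.8 and 18.8 TPM in induced shRCOR1 cells (-1.91 ± 0.14). SLC16A3, the lactate exporter MCT4, had 5.54 and 12.7 TPM in induced shRCOR2 cells, against 43.8 and 60 TPM in induced shRCOR1 cells (-2.46 ± 0.25), and NDRG1, a hypoxia-induced gene, 3.42 and 7.099 TPM in induced shRCOR2 cells against 28.3 and 45.6 TPM in induced shRCOR1 cells (-2.63 ± 0.24). Over the list, 25 members fell on induction in shRCOR2 cells and 1 rose, while 15 rose and 9 fell in shRCOR1 cells.

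Cholesterol and fatty acid synthesis genes were lower in 16 of 31 and higher in 4 (14 and 2 without the block), with a median of -0.445. SCD, the desaturase that makes oleate, had 115 and 126 TPM in induced shRCOR2 cells, against 431 and 360.4 TPM in induced shRCOR1 cells (-1.70 ± 0.14, adjusted p = 3.58e-05). HMGCS1, an early enzyme of the mevalonate pathway, had 41.4 and 58.2 TPM in induced shRCOR2 cells, against 182 and 116 TPM in induced shRCOR1 cells (-1.54 ± 0.30). On induction 23 members fell and 2 rose in shRCOR2 cells, against 8 that fell and 1 that rose in shRCOR1 cells.

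Of 37 nuclear genes of the respiratory chain, 11 (29.7%) were higher and 7 (18.9%) lower, shares close to the 27.4% and 20.7% of all genes, and the median was 0.09. COX7A2L, a factor of respiratory supercomplexes, had 22 and 20.7 TPM in induced shRCOR2 cells, against 72.3 and 83.2 TPM in induced shRCOR1 cells (-1.81 ± 0.11, adjusted p = 1.17e-05), and COX6C, a subunit of cytochrome oxidase, 78.7 and 63.9 TPM in induced shRCOR2 cells against 190.3 and 159.8 TPM in induced shRCOR1 cells (-1.29 ± 0.06). SDHC, a membrane subunit of succinate dehydrogenase, was higher, at 169.6 and 153 TPM in induced shRCOR2 cells, against 87.3 and 90.4 TPM in induced shRCOR1 cells (0.85 ± 0.07). Of 13 mitochondrially encoded messenger RNAs 4 (30.8%) were higher, a share close to that of all genes, and 0 were lower. Of these calls 2, MT-ND1 (0.59 ± 0.07) and MT-ND3 (0.65 ± 0.06), held without the block. Among 22 mitochondrial tRNA genes 14 were higher and 0 lower. These genes are short, and whether their reads came from tRNAs or from neighbouring mitochondrial transcripts was not tested. The total mitochondrial share of TPM, given above, was higher in induced shRCOR2 cells in both replicates. With mitochondrial genes left out and TPM rescaled over the others, 8386 of 17465 genes were called between the induced lines, 60.4% of them higher, and the median of the heat shock proteins was -1.17.

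Ribosome biogenesis genes and other targets of MYC proteins, taken as 1 list, were lower in 20 of 38 and higher in 3. Their median was -0.37, and the counts were 13 and 0 without the block. DDX21, a nucleolar RNA helicase, had 42.9 and 46.3 TPM in induced shRCOR2 cells, against 195 and 213 TPM in induced shRCOR1 cells (-2.17 ± 0.09, adjusted p = 2.75e-06). HSPD1, the mitochondrial chaperonin, had 521 and 493 TPM in induced shRCOR2 cells, against 1308 and 1166 TPM in induced shRCOR1 cells (-1.28 ± 0.06, adjusted p = 5.41e-06). DDX21 fell by 1.75 in shRCOR2 cells and rose by 0.45 in shRCOR1 cells on induction. TSR1, a factor of small subunit assembly, had 44.8 and 42.8 TPM in induced shRCOR2 cells, against 90.7 and 85.5 TPM in induced shRCOR1 cells (-0.99 ± 0.11).

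Cell cycle genes separated the lines little. Of 35 genes of G2 and mitosis 3 were higher and 7 lower (0 and 0 without the block), with a median of -0.05 that turned sign on FPKM, and on induction 34 of them fell in shRCOR2 and 32 in shRCOR1 cells. BIRC5, survivin, had 47.4 and 37.4 TPM in induced shRCOR2 cells, against 129 and 63.1 TPM in induced shRCOR1 cells, below 181 and 136 TPM in untreated shRCOR2 and 176 and 137 TPM in untreated shRCOR1 cells (-1.08 ± 0.16; adjusted p = 0.000755, 0.0653 without the block). Of 39 replication genes 3 were higher and 7 lower (2 and 2 without the block), with a median of -0.05 that also turned sign on FPKM. MCM4, a subunit of the replicative helicase, had 28.9 and 27.6 TPM in induced shRCOR2 cells, against 107 and 72.8 TPM in induced shRCOR1 cells (-1.61 ± 0.21, adjusted p = 0.00039).

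Among 12 cyclins, CDK4/6 genes and inhibitors, 4 were higher and 3 lower (3 and 1 without the block), with a median of -0.21. These shares are 33.3% and 25.0%, against 27.4% and 20.7% of all genes. CCND1, cyclin D1, had 89.9 and 106 TPM in induced shRCOR2 cells, against 238 and 243 TPM in induced shRCOR1 cells (-1.29 ± 0.19, adjusted p = 0.000792). CDK6, a kinase partner of cyclin D, had 51.1 and 68.7 TPM in induced shRCOR2 cells, against 28.9 and 31.9 TPM in induced shRCOR1 cells (0.94 ± 0.10, adjusted p = 0.000107). CCND1 rose by 1.08 and CDK6 fell by 0.84 in shRCOR1 cells on induction, while neither change was called in shRCOR2 cells.

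Targets of p53 were higher in induced shRCOR2 cells in 15 of 26 and lower in 2 (13 and 1 without the block), with a median of 0.68. FDXR, ferredoxin reductase, had 109 and 102 TPM in induced shRCOR2 cells, against 26.5 and 26.99 TPM in induced shRCOR1 cells (1.94 ± 0.08, adjusted p = 2.75e-06). ZMAT3, an RNA-binding protein, had 47.9 and 50.3 TPM in induced shRCOR2 cells, against 11.4 and 16.2 TPM in induced shRCOR1 cells (1.78 ± 0.12, adjusted p = 2.14e-05). DDB2, a DNA damage sensor, had 34.5 and 30.03 TPM in induced shRCOR2 cells, against 8.64 and 8.96 TPM in induced shRCOR1 cells (1.76 ± 0.13, adjusted p = 2.6e-05). In all 3 the induced shRCOR2 libraries were above the other 10. CDKN1A, the cell cycle inhibitor p21, had 136 and 121 TPM in induced shRCOR2 cells, against 70.4 and 85.3 TPM in induced shRCOR1 cells (0.72 ± 0.12, adjusted p = 0.0017), and rose on induction in both lines, by 1.66 in shRCOR2 and 0.96 in shRCOR1 cells. On induction 20 members rose and 1 fell in shRCOR2 cells, against 7 that rose and 7 that fell in shRCOR1 cells.

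Cell death regulators went both ways, 4 of 17 higher and 7 lower (2 and 6 without the block), with a median of -0.30. These shares are 23.5% and 41.2%, against 27.4% and 20.7% of all genes. BAX, a pore-forming executor of apoptosis, had 315 and 279.7 TPM in induced shRCOR2 cells, against 131 and 109 TPM in induced shRCOR1 cells (1.30 ± 0.10, adjusted p = 3.16e-05). The inhibitors of apoptosis MCL1 and BCL2 were lower: MCL1 had 75.6 and 72.5 TPM in induced shRCOR2 cells, against 217 and 273 TPM in induced shRCOR1 cells (-1.71 ± 0.14, adjusted p = 4.99e-05). BCL2 had 5.54 and 4.43 TPM in induced shRCOR2 cells, against 14.8 and 17.1 TPM in induced shRCOR1 cells (-1.50 ± 0.18, adjusted p = 0.000278).

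Replication-dependent histone genes had the highest median among lists with at least 10 tested members. Of 22 tested, 17 were higher and 0 lower (77.3% and 0.0%), and the median was 1.08. The counts were 14 and 0 without the block. H1-2, a linker histone, had 49.8 and 59.03 TPM in induced shRCOR2 cells, against 10.1 and 12.5 TPM in induced shRCOR1 cells (2.17 ± 0.23, adjusted p = 0.000148). H2AC6 had 35.3 and 47.2 TPM in induced shRCOR2 cells, against 6.03 and 9.83 TPM in induced shRCOR1 cells (2.26 ± 0.31, adjusted p = 0.000538). The induced shCTRL libraries again lay apart, with 26.9 and 62.1 TPM of H1-2 and 16.6 and 37.7 TPM of H2AC6. Copies of these genes are near-identical and may share reads. Most messages of these genes lack a poly(A) tail. The material was total RNA, but whether poly(A) RNA was then selected is not stated here, so which histone transcripts were captured is uncertain. On induction 14 members rose in shRCOR2 cells, against 1 that rose and 5 that fell in shRCOR1 cells.

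Interferon and class I genes had no common direction, 5 of 17 higher and 5 lower (3 and 3 without the block). These shares are 29.4% and 29.4%, against 27.4% and 20.7% of all genes. The median of 0.04 turned sign under median-of-ratios scaling. IFI6, an interferon-induced mitochondrial protein, had 10.7 and 12.8 TPM in induced shRCOR2 cells, against 2.66 and 3.05 TPM in induced shRCOR1 cells (1.72 ± 0.13, adjusted p = 3e-05), and fell by 1.79 on induction in shRCOR1 cells. IRF7, a regulator of interferon genes, had 3.97 and 3.803 TPM in induced shRCOR2 cells, against 0.825 and 0.834 TPM in induced shRCOR1 cells (1.42 ± 0.12, adjusted p = 5.25e-05).

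**Figure D5:**
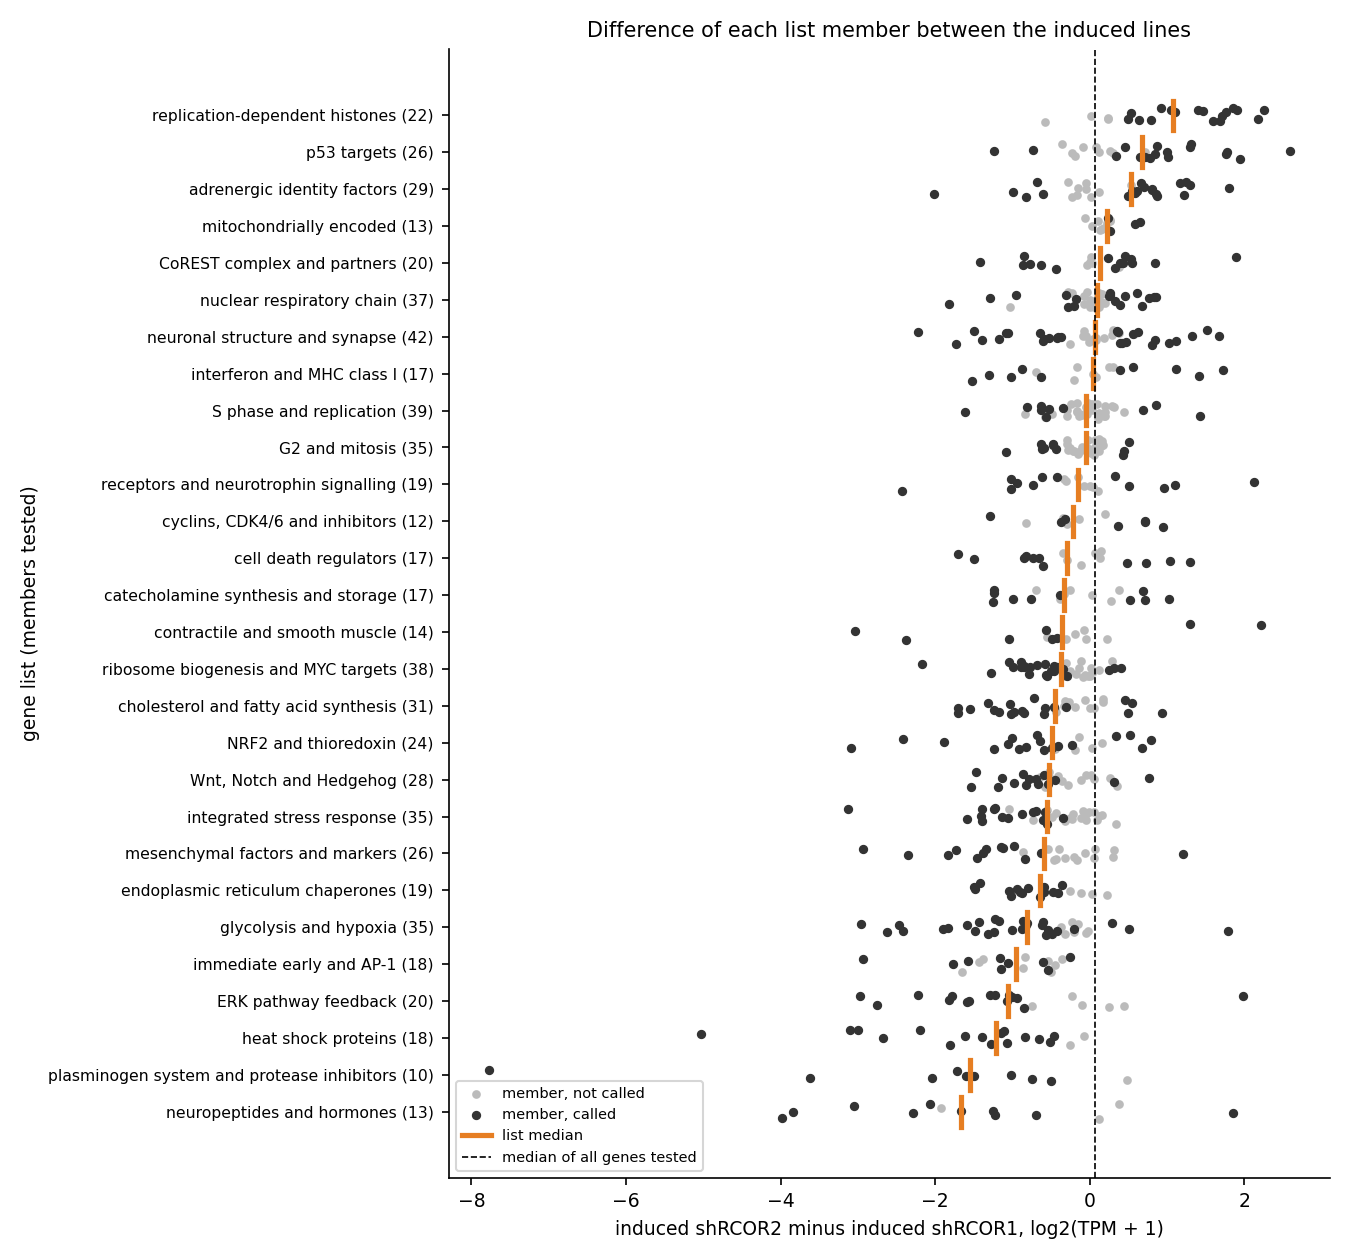
Difference between induced shRCOR2 and induced shRCOR1 cells for every tested member of the gene lists with at least 10 tested members, on the log2(TPM + 1) scale, dark where called and grey where not, with the list median in orange and the median of all genes (0.065) dashed. Medians run from 1.08 for replication-dependent histones to -1.67 for neuropeptides and hormones.

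By gene type, antisense transcripts were called higher in 279 and lower in 48 of 783 (35.6% and 6.13%), with a median difference of 0.31. For lincRNAs the counts were 215 and 69 of 706 (30.5% and 9.77%), with a median of 0.23. Protein-coding genes were called higher in 3678 and lower in 3094 of 12889 (28.5% and 24.0%), with a median of 0.045. Of all genes 27.4% were higher and 20.7% lower, so lincRNAs departed mainly in the share called lower. Small nucleolar RNAs went the other way, 4 higher and 29 lower of 118 (3.39% and 24.6%). These classes are low, with a median level of 1.65 TPM for antisense and 2.03 TPM for small nucleolar RNA genes, the 2 groups of libraries differed in depth as given above, and without a stated strand setting an antisense gene may share reads with its partner. By chromosome, genes of chromosome 19 were called higher in 34.3% and lower in 14.5% of 1149, and the median there was 0.14, against 0.01 in the untreated comparison.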

How the data were processed

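RNA-seq of total RNA from 12 Kelly samples was analysed, 2 libraries in each of 6 groups. Per the labels' protocols, RNA came from RNeasy Plus Mini columns and libraries from a directional NEBNext Ultra II kit. Trim Galore 0.6.7, HISAT2 2.2.1, StringTie 2.1.7 and the builds GRCh38 and hg38 are named in the submitters' processing notes. Which gene annotation was used, how strand was set and how reads with several matches were counted was not given in the sources used here. The authors deposited 1 table per library with coverage (a signal), FPKM and TPM per gene. TPM sums to 1000000 in each library and keeps no depth. Relative depth was therefore taken from the deposited coverage divided by FPKM, and no interval for counting error can be given.

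TPM was summed per gene ID, kept where at least 1 TPM was reached in at least 2 libraries, and tested as log2(TPM + 1) with limma 3.58.1 in R 4.3.3, with an intensity trend, 6 group means and the replicate number as a block, leaving 5 residual degrees of freedom. Tables and figures used Python 3.11.15, numpy 2.4.6, pandas 2.3.3 and matplotlib 3.10.9, and the fit was tested on simulated data. The replicate number was taken to pair the samples because, over all 15 pairs of groups, deviations of same-numbered libraries from their group means correlated at 0.3722 to 0.7504, above the 0.1 required. Genes named are the 12 with the largest difference in each direction among those called with and without the block, without overlap and with a mean of at least 10 TPM in an induced group; 6 in each direction for the difference between inductions; up to 5 called members of each list by size of difference; and RCOR1, RCOR2, RCOR3, KDM1A and MYCN. A few genes that the rule names are not reported here. The comparison and all gene lists were chosen with earlier results of these data known. Promoters were RefSeq windows matched to the start nearest that of the deposited gene. Alternatives were a pseudocount of 0.1, a filter of 5 TPM or none, FPKM, other scalings, no block, fewer groups and leaving out each library.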

Additional observations from a re-analysis of the deposited data

Results flagged for a closer look

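The change on induction differed between the shRCOR2 and the shRCOR1 line by the test of the difference itself, an interaction term in limma, for 5125 genes. The differences of change, shRCOR2 minus shRCOR1, were -7.77 for TFPI2, -4.99 for HSPA6, -3.95 for CGA, -3.73 for VGF, -3.68 for PLAT and -3.58 for GEM among genes with the more negative change in shRCOR2 cells. On the other side they were 2.74 for TG, 2.60 for FZD5, 2.54 for SHOX2, 2.52 for UTRN, 2.502 for AC027644.3 and 2.44 for TP53I3. TG, the thyroglobulin gene, had 10.9 and 13.1 TPM in induced shRCOR2 cells, against 2.77 and 1.002 TPM in induced shRCOR1 cells. AC027644.3, which has no assigned function, had 23.0 and 23.6 TPM in induced shRCOR2 cells, against 2.96 and 5.67 TPM in induced shRCOR1 cells. The TG and FZD5 calls were lost with no filter on low values (adjusted p = 0.0528 and 0.0695), and that of FZD5 also without induced shRCOR1 replicate 2, untreated shRCOR1 replicate 2 or either untreated shRCOR2 replicate (adjusted p from 0.0558 to 0.0592).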

How the results depend on the processing

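Without the replicate block, 4672 genes were called between the induced lines and 1880 for the difference between inductions. The untreated comparison gave 0 calls in every alternative except the fit of only the groups compared, which gave 26. Leaving out 1 library gave 5697 to 6151 calls between the induced lines, 0 in the untreated comparison and 3079 to 3802 for the difference between inductions, the lowest without untreated shRCOR2 replicate 2. The RCOR2 difference ran from -0.584 to -0.289 on leaving out a library, and that of RCOR1 from 0.79 to 0.888. KDM1A, close to 0 and between -0.035 and 0.052 on leaving out a library, turned sign under median-of-ratios scaling (-0.065), without induced shRCOR1 replicate 2 (-0.035) and without induced shRCOR2 replicate 1 (-0.001), and MT-ND2 did so after quantile normalization (-0.000). The cause was not tested. Of 178 results for named genes, 134 kept their direction and side of the threshold in every alternative run, and 28 lost their call without the block. With 2 libraries a group and no read counts, differences in genes near 1 TPM are the least certain.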
